A study of Homo sapiens with 15 samples.

Results

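The DNA replication and S-phase genes examined here are 43 genes that together copy the genome, supply its building blocks and rebuild chromatin behind the replication fork. They were selected by gene symbol from the 60107 genes listed in each library, and each of the 43 was found once. The values were normalised read counts from 15 libraries, all made after 24 h of treatment. MIA PaCa-2, from which they came, is an established pancreatic carcinoma cell line of human origin. Each of 5 groups held 3 libraries, which were treated with vehicle, Lys05 at 5 µM, BAQ12 at 5 µM, BAQ13 at 5 µM and BAQ12O at 5 µM. Lys05 is a dimeric chloroquine-like agent that accumulates in lysosomes and blocks autophagy. BAQ12 and BAQ13 were made by the study from parts of Lys05 and of MSDH, a detergent that acts on lysosomes. They assemble into nanoparticles, and their hydrophobic tails differ in length by a methylene unit. BAQ12O is known here only by that name from the sample labels. The labels do not say whether the libraries of a group came from separate cultures, so p-values measure the spread between these libraries, which may be technical.

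Before a cell divides, the MCM helicase is loaded onto replication origins in the G1 phase, and at the start of S phase it is activated and unwinds the DNA. The sliding clamp PCNA then holds the polymerases on the template, while ribonucleotide reductase and thymidylate synthase supply deoxynucleotides. Many of these genes are transcribed together at the G1/S transition under E2F transcription factors, and proliferating tumour lines in culture express them at high levels.

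Between 1586566 and 2500551 reads per library (median 2230594) fell on genes, so that the floor of 3 reads lay between 2.49 and 4.14 normalised counts and covers counting error only. Of the 43 genes, 41 passed the filter on low counts, and CCNE2 and E2F8 did not. Totals over the 15 libraries ran from 100 to 7280 reads for the 41 genes, and 36 of them had at least 10 reads in every library. The 5 that did not were CDC45, DSCC1, PRIM1, EXO1 and UHRF1. The keratins KRT8, KRT18 and KRT19 and the intermediate filament gene VIM were detected in every library, whereas KRT7, EPCAM and CDH1 of the epithelial list were at or near 0. The listed markers of leukocytes, fibroblasts, endothelium, and pancreatic acini and islets stood at no more than 7.54 normalised counts, the highest value of CD68. Replicate 3 of BAQ12 stood apart from its group, with a mean Spearman correlation across genes of 0.931 with the other two BAQ12 libraries, against 0.955 to 0.983 for the other libraries with their own groups. Counts of calls over the replication genes, and the BAQ12 sums and medians over them, are given with and without it.

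With each agent, most replication genes had lower normalised counts than with vehicle. The counts summed over the 41 genes were 5873 ± 44.3 (SD, n = 3) with vehicle, 5066 ± 123 with Lys05, 4792 ± 63.1 with BAQ12, 4278 ± 72.3 with BAQ13 and 4492 ± 51.0 with BAQ12O. Without replicate 3 the BAQ12 sum was 4808 ± 79.8 (SD, n = 2). No treated library reached the lowest vehicle sum of 5837. The median log2 fold change of the 41 genes was -0.25 with Lys05, -0.38 with BAQ12, -0.50 with BAQ13 and -0.39 with BAQ12O, while the median of all 10495 genes tested lay between -0.00421 and 0.00184. In these bulk libraries, fewer cells in S phase and less replication mRNA per cell cannot be told apart. Of the 6 listed epithelial markers 3 passed the filter. KRT8 had log2 fold changes of -0.39, -0.58, -0.85 and -0.60 with Lys05, BAQ12, BAQ13 and BAQ12O, the last 3 past the threshold of the test described next. KRT18 had -0.30, -0.31, -0.50 and -0.43, the last 2 past it, and KRT19 had -0.09, 0.02, 0.12 and 0.12, none past it, with every BAQ13 and BAQ12O library above the vehicle libraries. Their part in the result was not tested.

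The test was limma on log2(normalised count + 1) across all genes and all 15 libraries, with Benjamini-Hochberg adjustment, and a gene was called at an adjusted p under 0.05. By this rule 16 of the 41 genes fell with BAQ13, 7 with BAQ12O, 5 with BAQ12 and 0 with Lys05, and 0 rose. Of all genes tested, 2.19% were called lower with BAQ13, 0.543% with BAQ12O, 0.41% with BAQ12 and 0.162% with Lys05, and 3.58%, 0.934%, 0.572% and 0.0762% were called higher. With Lys05, 10 of the 41 genes were lower at an unadjusted p under 0.05, and edgeR and DESeq2 on the recovered reads also called 0. Lower at an unadjusted p under 0.05 were 2.16% of all genes tested with Lys05, 5.52% with BAQ12, 9.09% with BAQ13 and 6.01% with BAQ12O, which are the shares to set beside the counts at an unadjusted p given for each role. The signs of the estimates were lower for 38 of 41 genes with Lys05, 38 with BAQ12, 39 with BAQ13 and 41 with BAQ12O. Of all 10495 genes tested, 5206, 5272, 5300 and 5305 had lower estimates in the same order. Complete separation, in which every treated library lay below every vehicle library, held for 23 genes with Lys05, 23 with BAQ12, 30 with BAQ13 and 30 with BAQ12O, where the shares among all genes tested were 7.37%, 7.61%, 14.4% and 13.3%. A change of at least 2-fold with an unadjusted p of at most 0.05, the threshold of the study, was met in the lower direction by 0, 0, 6 and 4 genes, against 0.257%, 0.448%, 0.705% and 0.333% of all genes. Fold change and p were here those of limma on log2(normalised count + 1). The study used a t test on another set of genes, so its counts are not comparable with these. The 4 comparisons share the vehicle libraries. CDC6, CDCA7 and DTL were called lower with BAQ12, BAQ13 and BAQ12O, 4 genes with 2 agents, 11 with 1 agent and 23 with none.

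The counts of calls moved with the libraries in the fit. Without BAQ12 replicate 3, limma called 2 genes with Lys05, 8 with BAQ12, 22 with BAQ13 and 18 with BAQ12O, all lower, where 0.244%, 0.554%, 6.35% and 2.28% of all genes were called lower in the same fit. A fit of only the 6 libraries compared called 5 of 40, 0 of 41, 20 of 40 and 24 of 40 lower, where the shares of all genes were 0.608%, 0.161%, 3.91% and 4.59%. The shares over all genes thus moved as well, and for BAQ12O they were larger in both fits than the 0.543% given above. Leaving out vehicle replicate 1, 2 or 3 lowered the BAQ13 count to 11, 10 and 9, the BAQ12 count to 1, 0 and 1 and the BAQ12O count to 2, 2 and 3, where the shares of all genes called lower fell to 1.33%, 1.02% and 0.994% with BAQ13, to 0.225%, 0.187% and 0.197% with BAQ12 and to 0.234%, 0.243% and 0.216% with BAQ12O. The median log2 fold change of the 41 genes stayed below 0 with each agent in every one of these fits, and without BAQ12 replicate 3 it was -0.33 with BAQ12.

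**Figure D1:**
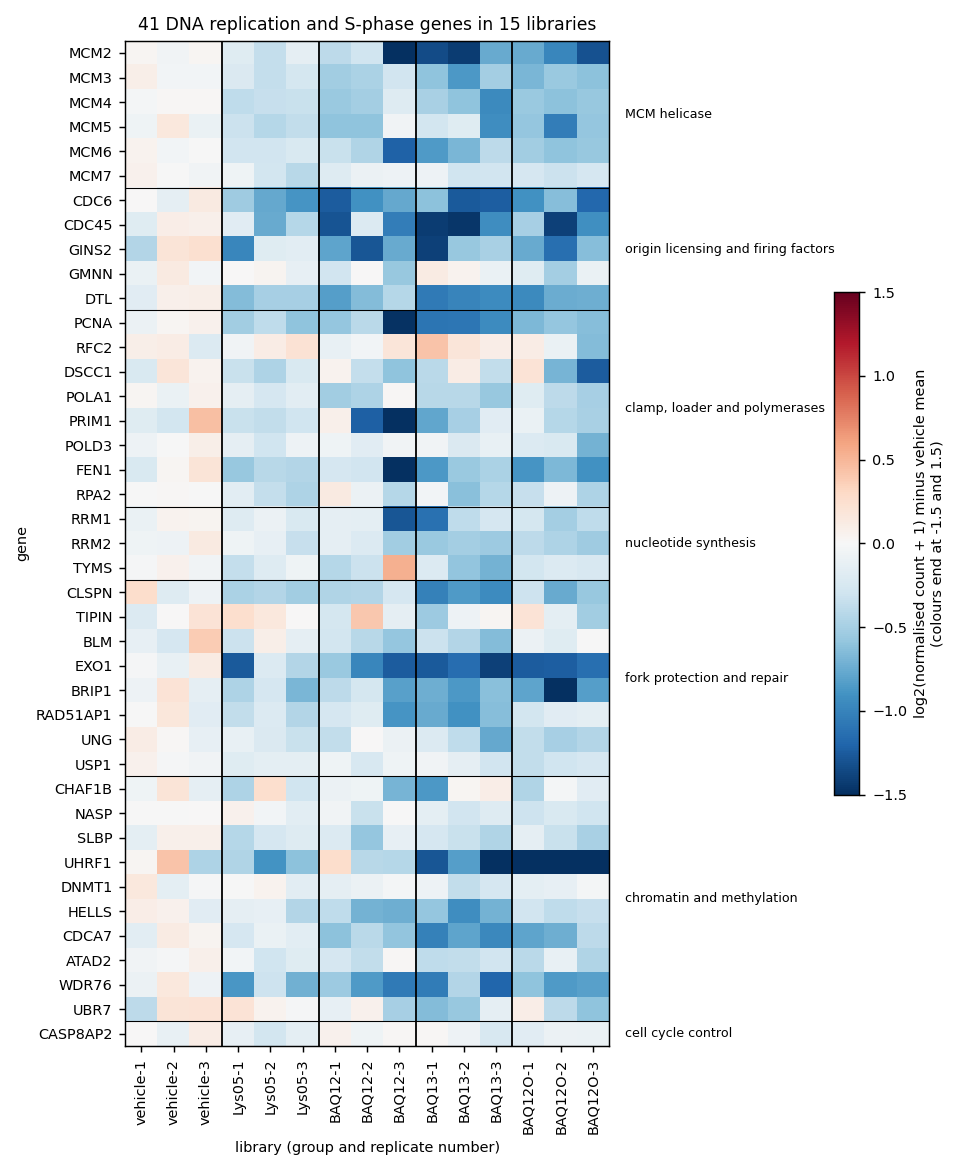
Heat map of the 41 genes tested, in rows grouped by role, across the 15 libraries in columns, as log2(normalised count + 1) minus the mean of the vehicle libraries, with colours ending at -1.5 and 1.5. Blue marks lower values, and the library medians ran from -0.06 to 0.03 with vehicle, from -0.26 to -0.25 with Lys05 and from -0.58 to -0.51 with BAQ13.

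The promoters of these genes were compared with those of all genes, since many G1/S genes carry E2F sites. The list is made of such genes, so a high share of matches describes the choice of genes and not the agents. Windows of all genes were not limited to the genes tested. Whether the agents act through E2F was not tested. RefSeq promoter windows of GRCh38.p14, which run from 250 bases before to 50 bases after the transcription start, were found for 34 of the 43 genes, in 47 windows. The letters TTTCCCGC, TTTCGCGC, TTTGCCGC or TTTGGCGC, searched on both strands and in part overlapping each other, were present in 22 of the 47 windows (46.8%) and in 1164 of 35116 windows of all genes (3.31%). Among genes called lower with BAQ13, 11 of 19 windows held a match (57.9%), and among those tested and not called 11 of 28 did (39.3%). The letters CCAAT, searched on both strands, were in 68.1% of the 47 windows and in 34.6% of all windows. These matches describe letters in the window and are not evidence of a bound site. Of the genes called lower with BAQ13, CDC45, RRM2 and RAD51AP1 held no match in any window. The second windows of PCNA and EXO1 held none either. Every window shown here holds a match, so the examples do not stand for all windows. Windows of genes that were called lower with BAQ13 are shown for the licensing factor gene CDC6, the ubiquitin ligase receptor gene DTL, the helicase gene MCM3, the clamp gene PCNA and the chromatin remodeller gene HELLS, with the matched letters in capitals (on the reverse strand they read GCGGGAAA or GCGCCAAA).
CDC6 (chr17:40287629-40287928, plus strand): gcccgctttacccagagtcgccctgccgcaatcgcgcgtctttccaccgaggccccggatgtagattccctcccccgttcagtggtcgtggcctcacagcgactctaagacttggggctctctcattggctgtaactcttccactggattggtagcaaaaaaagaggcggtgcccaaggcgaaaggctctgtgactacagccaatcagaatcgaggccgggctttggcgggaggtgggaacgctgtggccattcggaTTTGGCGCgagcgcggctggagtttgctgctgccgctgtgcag
DTL (chr1:212035498-212035797, plus strand): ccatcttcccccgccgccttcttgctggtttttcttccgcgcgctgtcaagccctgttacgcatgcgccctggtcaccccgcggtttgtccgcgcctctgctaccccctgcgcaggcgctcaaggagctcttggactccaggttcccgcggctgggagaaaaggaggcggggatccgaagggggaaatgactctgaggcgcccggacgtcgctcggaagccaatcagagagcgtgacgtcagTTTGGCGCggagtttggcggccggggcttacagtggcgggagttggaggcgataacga
MCM3 (chr6:52284693-52284992, minus strand): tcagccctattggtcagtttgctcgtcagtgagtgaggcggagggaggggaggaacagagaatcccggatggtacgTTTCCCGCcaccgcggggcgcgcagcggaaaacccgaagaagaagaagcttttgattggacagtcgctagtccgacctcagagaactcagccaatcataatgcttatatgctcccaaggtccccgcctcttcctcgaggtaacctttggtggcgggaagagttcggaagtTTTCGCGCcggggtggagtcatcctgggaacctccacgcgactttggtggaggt
PCNA (chr20:5126573-5126872, minus strand): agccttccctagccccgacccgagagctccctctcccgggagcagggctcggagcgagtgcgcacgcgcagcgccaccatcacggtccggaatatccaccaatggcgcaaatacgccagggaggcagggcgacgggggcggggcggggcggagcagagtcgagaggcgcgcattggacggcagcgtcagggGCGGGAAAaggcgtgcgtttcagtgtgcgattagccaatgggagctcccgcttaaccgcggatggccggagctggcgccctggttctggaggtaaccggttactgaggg
HELLS (chr10:94545538-94545837, plus strand): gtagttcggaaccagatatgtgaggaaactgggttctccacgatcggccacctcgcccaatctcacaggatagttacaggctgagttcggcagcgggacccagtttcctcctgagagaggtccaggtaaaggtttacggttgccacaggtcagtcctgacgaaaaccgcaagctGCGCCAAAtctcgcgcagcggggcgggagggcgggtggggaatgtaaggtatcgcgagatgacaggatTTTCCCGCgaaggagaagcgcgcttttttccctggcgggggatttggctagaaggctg
The match in DTL began 8 bases before the start and that in CDC6 began at base 7 after it, while MCM3 and HELLS held 2 matches each. All of these windows also held at least 1 CCAAT.

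The MCM2 to MCM7 genes encode the subunits of the replicative helicase. All 6 had lower estimates with every agent, with a median log2 fold change of -0.27 with Lys05, -0.42 with BAQ12, -0.65 with BAQ13 and -0.60 with BAQ12O. MCM2, MCM3, MCM4 and MCM6 fell with BAQ13 and MCM3 and MCM4 with BAQ12O, and 0 of the 6 were called with Lys05 and BAQ12, where 3 and 4 were lower at an unadjusted p under 0.05. Without BAQ12 replicate 3 the BAQ12 median of the 6 was -0.45, and 2 of them were called. MCM2 (ENSG00000073111, chr3:127598223-127622436) had normalised counts of 63.9, 60.3 and 64.3 with vehicle, 55.4, 48.9 and 56.9 with Lys05, 47.7, 51 and 20.1 with BAQ12, 24.3, 22.8 and 36.9 with BAQ13, and 36.7, 31.5 and 24.8 with BAQ12O. No treated library overlapped the vehicle libraries, and replicate 3 of BAQ12 fell far below its group. Its log2 fold change was -1.17 ± 0.28 (SE), adjusted p = 0.016 with BAQ13, and -1.01 ± 0.28 (SE), adjusted p = 0.086 with BAQ12O. MCM3 (ENSG00000112118, chr6:52264009-52284881) measured 155, 142 and 141 with vehicle, 126, 114 and 121 with Lys05, 102, 105 and 119 with BAQ12, 96.1, 80.2 and 102 with BAQ13, and 90.5, 99.2 and 95.1 with BAQ12O. The treated libraries again lay below all vehicle libraries, and BAQ13 and BAQ12O overlapped each other. The change of MCM3 was -0.65 ± 0.12 (SE), adjusted p = 0.00182 with BAQ13, -0.62 ± 0.12 (SE), adjusted p = 0.009 with BAQ12O.

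MCM4 (ENSG00000104738, chr8:47960185-47978160) had 315, 325 and 327 with vehicle, 247, 254 and 255 with Lys05, 219, 225 and 283 with BAQ12, 230.5, 212 and 165 with BAQ13, and 219, 209.7 and 216 with BAQ12O. Its 3 vehicle libraries stood above all 12 treated ones, with a narrow spread in Lys05 and BAQ12O and a wide one in BAQ12 and BAQ13. The log2 fold change was -0.68 ± 0.12 (SE), adjusted p = 0.00141 with BAQ13, and -0.58 ± 0.12 (SE), adjusted p = 0.0151 with BAQ12O. For MCM6 (ENSG00000076003, chr2:135839626-135876426) the counts were 155, 145 and 149.6 with vehicle, 122, 123 and 128 with Lys05, 118, 109.7 and 64.1 with BAQ12, 83.1, 93 and 114 with BAQ13, and 105, 98.2 and 101 with BAQ12O. These groups did not overlap with vehicle either, and its change with BAQ13 was -0.64 ± 0.18 (SE), adjusted p = 0.0385. MCM5 (ENSG00000100297, chr22:35400063-35425430) gave 49.8, 58.1 and 48.7 with vehicle, 41.5, 38.5 and 40.1 with Lys05, 33.9, 34 and 50.2 with BAQ12, 42.9, 45.6 and 26.8 with BAQ13, and 34.5, 24.8 and 34.5 with BAQ12O. Only replicate 3 of BAQ12 reached into the vehicle range, and no comparison passed the threshold, with log2 fold changes between -0.73 and -0.37. MCM7 (ENSG00000166508, chr7:100092728-100101940) had 122, 116 and 113 with vehicle, 112, 96.9 and 87.7 with Lys05, 102, 109.7 and 111 with BAQ12, 111, 94.8 and 95.5 with BAQ13, and 98.1, 93.4 and 97.9 with BAQ12O. All treated MCM7 libraries were below the vehicle libraries, by log2 fold changes of only -0.28 to -0.12, and none passed the threshold. When any 1 of the 6 libraries compared was left out, limma kept the BAQ13 calls of MCM3 (log2 fold change from -0.73 to -0.55) and MCM4 (-0.78 to -0.54). The BAQ13 calls of MCM2 (-1.38 to -1.04) and MCM6 (-0.76 to -0.54) were kept in 1 of these 6 fits, the one without BAQ13 replicate 3, and MCM6 was also lost without any Lys05 or BAQ12O library. The BAQ12O call of MCM3 was lost without vehicle replicate 1 (-0.57), and that of MCM4 was lost in all 6 fits (-0.60 to -0.56).

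Of the 5 genes that carry out or restrain origin licensing and firing, CDC6, CDC45 and DTL fell with BAQ13, CDC6 and DTL with BAQ12 and with BAQ12O, and 0 with Lys05, where 2 were lower at an unadjusted p under 0.05. CDC6 (ENSG00000094804, chr17:40287633-40304657), which loads the MCM helicase onto origins, had normalised counts of 82.2, 74.8 and 90 with vehicle, 56.4, 47.9 and 43.9 with Lys05, 33.9, 43.4 and 47.7 with BAQ12, 53.2, 33.7 and 34.4 with BAQ13, and 43.1, 52.4 and 35.8 with BAQ12O. The highest treated value was 56.4 and the lowest vehicle value 74.8, and the 4 treated groups overlapped one another. The log2 fold change was -0.98 ± 0.20 (SE), adjusted p = 0.0204 with BAQ12, -1.04 ± 0.20 (SE), adjusted p = 0.00373 with BAQ13 and -0.91 ± 0.20 (SE), adjusted p = 0.0262 with BAQ12O. With Lys05 the estimate was -0.73 ± 0.20 (SE), adjusted p = 0.371, and it passed the threshold in the fit of only the 6 libraries compared (adjusted p = 0.00101). DTL (ENSG00000143476, chr1:212035553-212107400) encodes the substrate receptor of a ubiquitin ligase that removes the licensing factor CDT1 in S phase. It measured 125, 149 and 149.6 with vehicle, 89.4, 98.9 and 98.9 with Lys05, 78.9, 89.3 and 104 with BAQ12, 67.2, 70.2 and 72.9 with BAQ13, and 72.2, 83.9 and 84.1 with BAQ12O. The vehicle libraries stood above all treated ones, and the BAQ13 libraries lay close together, between 67.2 and 72.9. DTL changed by -0.996 ± 0.13 (SE), adjusted p = 6.36e-05 with BAQ13, -0.81 ± 0.13 (SE), adjusted p = 0.00228 with BAQ12O and -0.64 ± 0.13 (SE), adjusted p = 0.0185 with BAQ12. With Lys05 it was -0.55 ± 0.13 (SE), adjusted p = 0.148, and without BAQ12 replicate 3 it passed the threshold (adjusted p = 0.0243).

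CDC45 (ENSG00000093009, chr22:19479459-19520612), which joins the MCM helicase at the moment of firing, had few reads, with 19.1, 23.4 and 22.9 with vehicle, 19.2, 12.5 and 15.9 with Lys05, 8.25, 18.7 and 10 with BAQ12, 7.47, 7.29 and 10.9 with BAQ13, and 15.1, 7.63 and 11 with BAQ12O. BAQ13 had the lowest mean, and replicate 1 of Lys05 overlapped the vehicle range. Its log2 fold change with BAQ13 was -1.27 ± 0.32 (SE), adjusted p = 0.0218. GINS2, a subunit of the GINS complex that binds CDC45, had means of 26.8 ± 6.71 (SD, n = 3) with vehicle, 19.7 ± 5.98 with Lys05, 13.3 ± 2.71 with BAQ12, 15 ± 4.97 with BAQ13 and 14.4 ± 2.63 with BAQ12O, and none of its comparisons passed the threshold. GMNN, which encodes geminin, an inhibitor of licensing that builds up in S and G2, had log2 fold changes of -0.02, -0.28, 0.03 and -0.26 with Lys05, BAQ12, BAQ13 and BAQ12O, none past the threshold. The BAQ13 calls of CDC6 (-1.25 to -0.92) and DTL (-1.08 to -0.95) and the BAQ12O call of DTL (-0.89 to -0.74) were kept whichever of the 6 libraries was left out. The other calls were lost without some of them: CDC6 with BAQ12 (-1.08 to -0.84) was called only without BAQ12 replicate 3, CDC6 with BAQ12O (-1.04 to -0.78) only without BAQ12O replicate 2, DTL with BAQ12 (-0.74 to -0.54) only without vehicle replicate 1 or BAQ12 replicate 3, and CDC45 with BAQ13 (-1.44 to -1.18) only without vehicle replicate 1 or BAQ13 replicate 3.

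Among the clamp, clamp loader and polymerase genes, PCNA and POLA1 fell with BAQ13 and PCNA with BAQ12, 2 and 1 of 8, while 0 of 8 were called with Lys05 and BAQ12O, where 1 and 4 were lower at an unadjusted p under 0.05. PCNA (ENSG00000132646, chr20:5114953-5126626), the sliding clamp, had 180.2, 197 and 200.1 with vehicle, 133, 147 and 126 with Lys05, 128, 145 and 67.8 with BAQ12, 89.6, 90.2 and 99.7 with BAQ13, and 119.7, 128 and 123 with BAQ12O. The vehicle libraries stood above all treated libraries, the BAQ13 libraries lay below every Lys05 and BAQ12O library, and replicate 3 of BAQ12 was the lowest of all 15. The log2 fold change was -1.04 ± 0.19 (SE), adjusted p = 0.00257 with BAQ13, -0.82 ± 0.19 (SE), adjusted p = 0.0498 with BAQ12, -0.64 ± 0.19 (SE), adjusted p = 0.123 with BAQ12O and -0.51 ± 0.19 (SE), adjusted p = 0.835 with Lys05. Without BAQ12 replicate 3 the spread of PCNA was smaller, and the BAQ12 change was -0.49 (adjusted p = 0.0273), with adjusted p = 0.000263 for BAQ12O and 0.0131 for Lys05. With BAQ13 the call of PCNA was kept whichever library was left out (-1.09 to -1.01), and with BAQ12 (-1.03 to -0.49) it was lost without any 1 of the 3 vehicle libraries and of the 9 Lys05, BAQ13 and BAQ12O libraries.

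POLA1, the catalytic subunit of the polymerase that starts each new strand, had means of 197 ± 11.2 (SD, n = 3) with vehicle and 142 ± 8.48 with BAQ13. Its log2 fold change was -0.47 ± 0.13 (SE), adjusted p = 0.0443, and the call was lost when any of the 6 libraries compared was left out (-0.51 to -0.42), as well as without any Lys05 library or BAQ12O replicate 2. PRIM1, the primase subunit that acts with it, ranged from 32.1 ± 9.62 with vehicle to 18.2 ± 13 with BAQ12, whose libraries read 33, 12.8 and 8.79. FEN1, the flap nuclease that trims Okazaki fragments, had 45.1 ± 6.63 with vehicle, 31.9 ± 1.87 with Lys05, 28.9 ± 14.2 with BAQ12, 28.7 ± 3.97 with BAQ13 and 24.9 ± 2.36 with BAQ12O. FEN1 libraries of every agent lay below every vehicle library, but its adjusted p was 0.22 or higher. RPA2, of the single-strand binding complex, POLD3, an accessory subunit of polymerase delta, and DSCC1, of a loader involved in cohesion, had log2 fold changes between -0.58 and -0.10 over the 4 agents, none past the threshold. RFC2, a subunit of the loader that places PCNA on DNA, was the exception in sign, with 0.09, 0.01 and 0.24 with Lys05, BAQ12 and BAQ13 and -0.21 with BAQ12O, none past the threshold.

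For deoxynucleotide synthesis, RRM2 fell with BAQ13, and RRM1 and TYMS passed the threshold with no agent. RRM2 (ENSG00000171848, chr2:10120698-10131419), the regulated small subunit of ribonucleotide reductase, had 213, 212 and 246 with vehicle, 213, 205 and 175 with Lys05, 204, 194 and 156 with BAQ12, 152, 157 and 153 with BAQ13, and 170.3, 162 and 154 with BAQ12O. The BAQ13 libraries lay close together below the vehicle range, and replicate 1 of Lys05 overlapped vehicle. Its log2 fold change was -0.54 ± 0.11 (SE), adjusted p = 0.00808 with BAQ13, -0.46 ± 0.11 (SE), adjusted p = 0.0559 with BAQ12O and -0.18 ± 0.11 (SE), adjusted p = 0.999 with Lys05. The BAQ13 call was lost without vehicle replicate 3 (-0.47) and kept in the other 5 fits. RRM1 (ENSG00000167325, chr11:4094707-4138876), the large subunit, had 487, 540.4 and 538 with vehicle, 457, 489 and 446 with Lys05, 473, 472 and 214 with BAQ12, 239, 400.1 and 436 with BAQ13, and 435, 365 and 398 with BAQ12O. Replicate 3 of BAQ12 and replicate 1 of BAQ13 were far below the other treated libraries, of which the lowest had 365, and the change with BAQ13 was -0.59 ± 0.24 (SE), adjusted p = 0.179. TYMS (ENSG00000176890, chr18:657604-673578), thymidylate synthase, had 283, 301 and 278 with vehicle, 224, 252 and 274 with Lys05, 214, 229.5 and 417 with BAQ12, 248, 190.5 and 176 with BAQ13, and 238, 249 and 243 with BAQ12O. Replicate 3 of BAQ12 was here the highest of the 15 libraries, and the BAQ12 group overlapped vehicle. Its changes were -0.21 with Lys05, -0.07 with BAQ12, -0.50 ± 0.19 (SE), adjusted p = 0.13 with BAQ13 and -0.24 with BAQ12O. Without BAQ12 replicate 3, RRM1 (adjusted p = 0.0022) and TYMS (adjusted p = 0.00134) passed the threshold with BAQ13.

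Of the 8 genes of fork protection and repair, CLSPN, EXO1 and RAD51AP1 fell with BAQ13 and BRIP1 with BAQ12O, and 0 were called with Lys05 and BAQ12, where 3 and 5 were lower at an unadjusted p under 0.05. CLSPN (ENSG00000092853, chr1:35720218-35769967) encodes claspin, the adaptor through which ATR activates the checkpoint kinase CHK1 at stalled forks. It measured 121, 88.2 and 95.5 with vehicle, 72.4, 73.9 and 70 with Lys05, 73.4, 74 and 84.2 with BAQ12, 49.5, 55.6 and 52 with BAQ13, and 80.8, 59.1 and 67.6 with BAQ12O. All vehicle libraries were above all treated libraries, and the BAQ13 libraries lay below every other library. The log2 fold change was -0.93 ± 0.15 (SE), adjusted p = 0.000527 with BAQ13, -0.55 ± 0.15 (SE), adjusted p = 0.0792 with BAQ12O and -0.48 ± 0.15 (SE), adjusted p = 0.499 with Lys05. RAD51AP1 (ENSG00000111247, chr12:4538798-4560048), a homologous recombination factor, had 119, 134 and 106 with vehicle, 91.6, 103 and 87.7 with Lys05, 100, 105 and 64.1 with BAQ12, 70, 62.9 and 76.3 with BAQ13, and 98.1, 106 and 108 with BAQ12O. BAQ13 and replicate 3 of BAQ12 were low, and the BAQ12O libraries reached into the vehicle range. The change was -0.77 ± 0.16 (SE), adjusted p = 0.00805 with BAQ13 and -0.19 ± 0.16 (SE), adjusted p = 0.661 with BAQ12O. BAQ13 calls of CLSPN (-1.03 to -0.80) were kept whichever of the 6 libraries was left out, and that of RAD51AP1 was lost without vehicle replicate 2 (-0.68).

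EXO1 (ENSG00000174371, chr1:241847967-241895148), a nuclease that resects DNA ends, also had few reads, with 19.1, 17.9 and 21.1 with vehicle, 7.45, 16.7 and 14 with Lys05, 12.8, 9.35 and 7.54 with BAQ12, 7.47, 8.20 and 6.70 with BAQ13, and 7.55, 7.63 and 8.27 with BAQ12O. No treated library reached the vehicle range, and in BAQ13 and BAQ12O the values lay between 6.70 and 8.27, not far above the floor of 3 reads. The log2 fold change was -1.27 ± 0.30 (SE), adjusted p = 0.0151 with BAQ13, and -1.21 ± 0.30 (SE), adjusted p = 0.0528 with BAQ12O. BRIP1 (ENSG00000136492, chr17:61681266-61863521), a helicase of the Fanconi anaemia pathway, had 44.8, 54.7 and 43.1 with vehicle, 34.1, 39.6 and 28.9 with Lys05, 35.8, 39.1 and 26.4 with BAQ12, 28, 25.5 and 30.2 with BAQ13, and 26.9, 16.2 and 26.2 with BAQ12O. All treated BRIP1 libraries were below vehicle, and replicate 2 of BAQ12O was the lowest. It changed by -1.04 ± 0.22 (SE), adjusted p = 0.019 with BAQ12O and -0.74 ± 0.22 (SE), adjusted p = 0.0524 with BAQ13. The EXO1 call with BAQ13 (-1.33 to -1.20) was kept without vehicle replicate 2 or BAQ13 replicate 2 and lost without the others, and the BRIP1 call with BAQ12O (-1.16 to -0.81) was kept only without BAQ12O replicate 1 or 3. UNG, the uracil glycosylase, had log2 fold changes of -0.45 with BAQ13 (adjusted p = 0.0696 by limma) and -0.44 with BAQ12O, and its BAQ13 and BAQ12O libraries lay below all vehicle libraries. USP1, which removes ubiquitin from PCNA and FANCD2, had 489.5 ± 21.5 (SD, n = 3) with vehicle and 396 ± 16.9 with BAQ12O, a log2 fold change of -0.31 ± 0.08 (SE), adjusted p = 0.086. BLM, a RecQ helicase, and TIPIN, of the complex that steadies stalled forks, passed the threshold with no agent, with changes from -0.47 to -0.09 and from -0.20 to 0.14.

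Among 10 genes of chromatin and DNA methylation, HELLS, CDCA7 and WDR76 fell with BAQ13, HELLS and CDCA7 with BAQ12, CDCA7 and UHRF1 with BAQ12O, and 0 with Lys05, of which 1 was lower at an unadjusted p under 0.05. HELLS is a chromatin remodeller needed for DNA methylation of repeats, and CDCA7 is the zinc finger protein that activates it. CDCA7 (ENSG00000144354, chr2:173354820-173368997) had 158, 191 and 181 with vehicle, 148, 165 and 158 with Lys05, 115, 133 and 117 with BAQ12, 86.8, 101 and 89.7 with BAQ13, and 101, 106 and 134 with BAQ12O. Lys05 overlapped vehicle, and the BAQ12, BAQ13 and BAQ12O libraries lay below all Lys05 and vehicle libraries. The log2 fold change was -0.17 ± 0.12 (SE), adjusted p = 0.999 with Lys05, -0.54 ± 0.12 (SE), adjusted p = 0.0495 with BAQ12, -0.92 ± 0.12 (SE), adjusted p = 0.000109 with BAQ13 and -0.64 ± 0.12 (SE), adjusted p = 0.0118 with BAQ12O. HELLS (ENSG00000119969, chr10:94501434-94613905) measured 203, 198 and 168 with vehicle, 171, 173 and 139 with Lys05, 145, 115 and 113 with BAQ12, 126, 98.4 and 115 with BAQ13, and 154, 145 and 149 with BAQ12O. The Lys05 group overlapped vehicle, BAQ12 and BAQ13 had the lowest means, and the BAQ12O libraries were close together. It changed by -0.61 ± 0.13 (SE), adjusted p = 0.03 with BAQ12, -0.74 ± 0.13 (SE), adjusted p = 0.00174 with BAQ13 and -0.34 ± 0.13 (SE), adjusted p = 0.26 with BAQ12O. With BAQ13 the calls of CDCA7 (-1.001 to -0.86) and HELLS (-0.83 to -0.65) were kept whichever of the 6 libraries was left out. With BAQ12, CDCA7 (-0.61 to -0.48) was called without BAQ12 replicate 3 alone among these and lost without 8 of the 9 libraries not compared, whereas HELLS (-0.72 to -0.55) was lost without vehicle replicate 1 or 2, BAQ12 replicate 2 or BAQ12O replicate 2. With BAQ12O, CDCA7 (-0.76 to -0.56) was kept only without vehicle replicate 1 or BAQ12O replicate 3.

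UHRF1 (ENSG00000276043, chr19:4903080-4962154), which brings the methyltransferase DNMT1 to newly copied DNA, was near the floor, with 10.8, 14.5 and 7.34 with vehicle, 7.45, 5.21 and 6.53 with Lys05, 12.8, 7.65 and 7.54 with BAQ12, 3.73, 5.47 and 2.51 with BAQ13, and 2.16, 2.86 and 0 with BAQ12O. The 3 BAQ12O libraries held 5 reads in all and the vehicle libraries 34, with 19, 29 and 13 for Lys05, BAQ12 and BAQ13. Its fitted log2 fold change with BAQ12O was -2.32 ± 0.47 (SE), adjusted p = 0.0152, and the size depends on the count added before the logarithm, since it was -3.60 with 0.1 added, where the call was lost, and -1.25 with 5 added. The UHRF1 call was also lost without vehicle replicate 1 or 2 or BAQ12O replicate 3 (-2.70 to -1.72). DNMT1 (ENSG00000130816, chr19:10133345-10231286) itself had 538, 435 and 476 with vehicle, 478, 499.9 and 432 with Lys05, 438, 454 and 471 with BAQ12, 456, 373 and 403 with BAQ13, and 437, 440.5 and 472 with BAQ12O. All treated groups overlapped the vehicle libraries, with log2 fold changes from -0.23 with BAQ13 to -0.04 with Lys05, none past the threshold.

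SLBP (ENSG00000163950, chr4:1692800-1712555), which binds the stem-loop of replication-dependent histone mRNAs, had 71.4, 83.7 and 83.5 with vehicle, 58.6, 66.7 and 69.1 with Lys05, 68.8, 52.7 and 72.9 with BAQ12, 66.3, 62.9 and 57.8 with BAQ13, and 72.2, 62.9 and 56.5 with BAQ12O. Lys05 and BAQ13 lay below all vehicle libraries, and BAQ12 and BAQ12O overlapped them. Its log2 fold changes ran from -0.35 to -0.29, none past the threshold. WDR76 had means of 30.1 ± 2.98 (SD, n = 3) with vehicle and 16.1 ± 5.01 with BAQ13, a log2 fold change of -0.89 ± 0.24 (SE), adjusted p = 0.0374, which was called in 1 of 6 fits with a library left out (without BAQ13 replicate 2, range -1.12 to -0.74) and lost without Lys05 replicate 3. All treated WDR76 libraries lay below the vehicle libraries. The histone chaperone gene NASP had 521 ± 3.64 with vehicle and 429.8 ± 11.8 with BAQ12O, a log2 fold change of -0.28 ± 0.09 (SE), adjusted p = 0.171. ATAD2, a bromodomain ATPase, CHAF1B, a subunit of chromatin assembly factor 1, and UBR7, a ubiquitin ligase, had log2 fold changes between -0.45 and 0.08, none past the threshold. CASP8AP2, which encodes the histone mRNA processing factor FLASH, was also not called, with -0.18, 0.0029, -0.10 and -0.12 with Lys05, BAQ12, BAQ13 and BAQ12O.

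The G1/S cyclin gene CCNE2 (ENSG00000175305, chr8:94879770-94896678) had normalised counts of 7.47, 7.82 and 1.84 with vehicle, 2.13, 4.17 and 1.87 with Lys05, 3.67, 4.25 and 0 with BAQ12, 4.67, 0.911 and 1.68 with BAQ13, and 5.39, 0.953 and 1.38 with BAQ12O. Most of these values lay near or under the floor of 3 reads, and the groups held 18, 8, 9, 8 and 7 reads in the same order. E2F8 (ENSG00000129173, chr11:19224063-19241620), an atypical E2F that represses G1/S genes late in S phase, had 8.30, 5.58 and 4.59 with vehicle, 4.26, 6.25 and 6.53 with Lys05, 1.83, 1.70 and 6.28 with BAQ12, 2.80, 0.911 and 4.19 with BAQ13, and 2.16, 8.58 and 8.27 with BAQ12O. Its groups overlapped, with 20, 17, 9, 9 and 17 reads. A difference in either gene was not detectable at this depth, and neither entered the test.

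**Figure D2:**
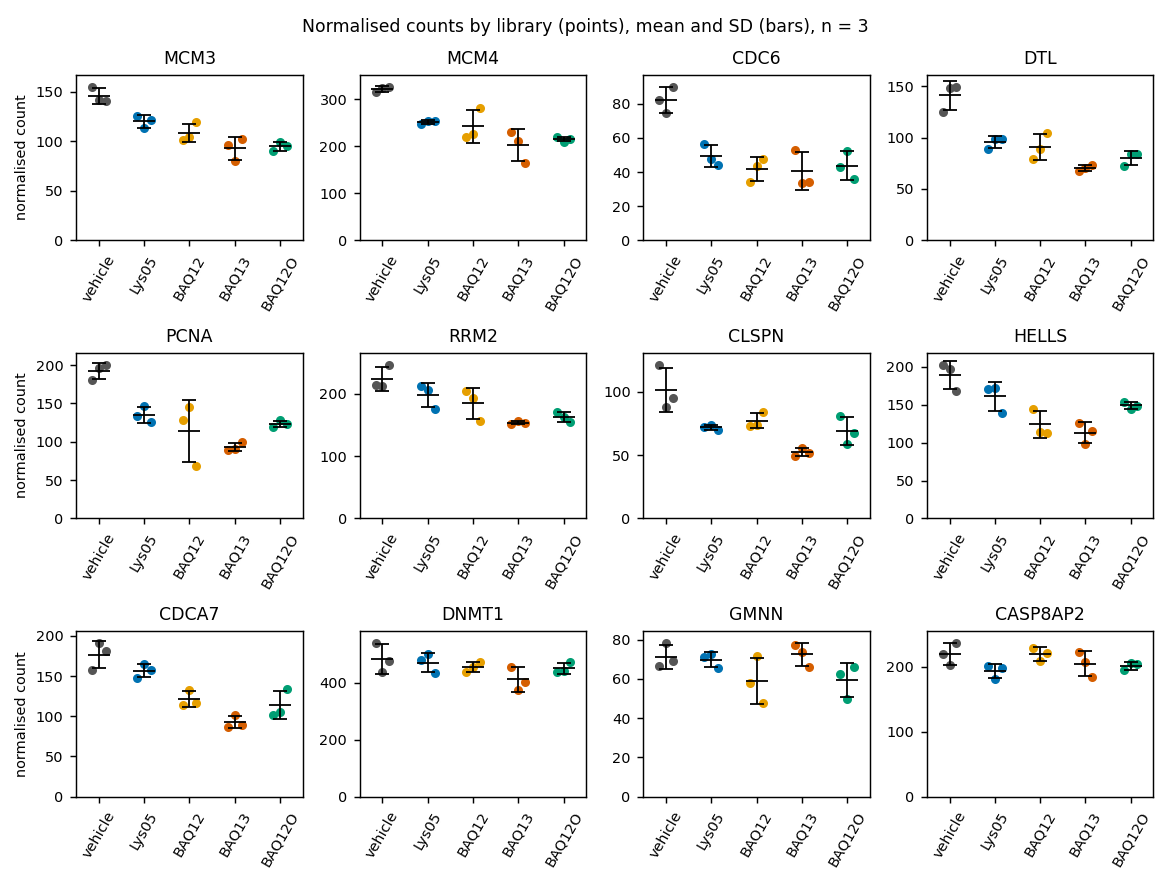
Normalised counts (vertical axes, from 0) of 12 genes in the 5 groups, with 1 point per library and bars for the mean and SD of 3 libraries. For CDC6, DTL and PCNA every treated library lies below the vehicle libraries, CDCA7 with Lys05 overlaps vehicle, and GMNN with BAQ13 (72.5 ± 5.74) stays within the spread of vehicle (71.1 ± 6.20).

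The 4 agents were compared with one another at the same dose and time, in 6 pairs. The same dose was not a dose of equal effect. In the paper's viability assay on this cell line, over the same treatment time, Lys05 was less potent than BAQ12 and BAQ13. The order of the agents, here and against vehicle, was not adjusted for potency. Whether it would hold at doses of equal effect was not tested. BAQ13 had the lowest group mean in 25 of the 41 genes, BAQ12O in 11, BAQ12 in 4, Lys05 in 1 and vehicle in 0. The same ranking was not made over all genes tested, so whether it is particular to these genes is not known. In the comparison of BAQ13 with Lys05, 2 of the 41 genes were called, both lower with BAQ13, where 2.66% of all genes were called in either direction. The first was CDCA7, by -0.76 ± 0.12 (SE), adjusted p = 0.00162. The second was HELLS, by -0.51 ± 0.13 (SE), adjusted p = 0.0473. The call of CDCA7 was kept whichever of the 6 libraries was left out (-0.82 to -0.71). That of HELLS (-0.61 to -0.41) was lost without Lys05 replicate 1 or 2, BAQ13 replicate 2 or 3, any vehicle or BAQ12O library, or BAQ12 replicate 2. Without BAQ12 replicate 3, 12 genes were called lower with BAQ13 than with Lys05, among them MCM2 (-0.95, adjusted p = 0.00125), PCNA (-0.53, adjusted p = 0.00127) and DTL (-0.44, adjusted p = 0.0215). In that fit 3.45% of all genes were called lower with BAQ13 than with Lys05, against 0.781% with all libraries. The median log2 difference of the 41 genes between BAQ13 and Lys05 was -0.30.

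BAQ12 and BAQ13, which differ by a methylene unit in the tail, did not differ past the threshold in any of the 41 genes (limma, 8 lower with BAQ13 at an unadjusted p under 0.05, and 0 calls by edgeR and DESeq2), where 0.562% of all genes were called and 3.37% were lower at an unadjusted p under 0.05. The median log2 difference, BAQ13 minus BAQ12, was -0.14, and -0.17 without BAQ12 replicate 3. The differences were -0.39 (95% interval -0.65 to -0.13) for CDCA7, -0.55 (95% interval -0.86 to -0.24) for CLSPN, -0.06 (95% interval -0.48 to 0.36) for CDC6 and -0.22 (95% interval -0.62 to 0.19) for PCNA. Without BAQ12 replicate 3, MCM2 (-0.83, adjusted p = 0.0253), RAD51AP1 (-0.55, adjusted p = 0.0239) and PCNA (-0.55, adjusted p = 0.0074) were lower with BAQ13 than with BAQ12, where 1.41% of all genes were called lower.

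Between BAQ12 and Lys05, 0 of the 41 genes were called by limma, edgeR or DESeq2, with 3 lower for BAQ12 at an unadjusted p under 0.05, where 3.48% of all genes were, and 0.162% of all genes were called. The median log2 difference was -0.11 with and without BAQ12 replicate 3, and for PCNA the difference was -0.32 (95% interval -0.72 to 0.09). BAQ12O was not called different from Lys05 in any of the 41 genes (7 lower with BAQ12O at an unadjusted p under 0.05, and 0.248% of all genes called), from BAQ12 in any (3 lower, and 0.229%) or from BAQ13 in any (2 lower and 4 higher, and 1.39%), and edgeR and DESeq2 called 0 as well. Of all genes, 3.21%, 3.73% and 5.69% were lower in these comparisons at an unadjusted p under 0.05, and 5.56% were higher with BAQ12O than with BAQ13. The median log2 differences were -0.22, -0.12 and 0.07, the second -0.13 without BAQ12 replicate 3. For RAD51AP1, BAQ12O exceeded BAQ13 by 0.57 (95% interval 0.23 to 0.91), with every BAQ12O library above every BAQ13 library, and it passed the threshold without BAQ12 replicate 3 (adjusted p = 0.00509). With p-values adjusted over all genes and the 6 pairs together, 2 differences were called, CDCA7 between BAQ13 and Lys05 (adjusted p = 0.00397) and UHRF1 between BAQ12O and BAQ12 (-2.13, adjusted p = 0.0441). The second rests on the 5 reads of UHRF1 in BAQ12O.

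**Figure D3:**
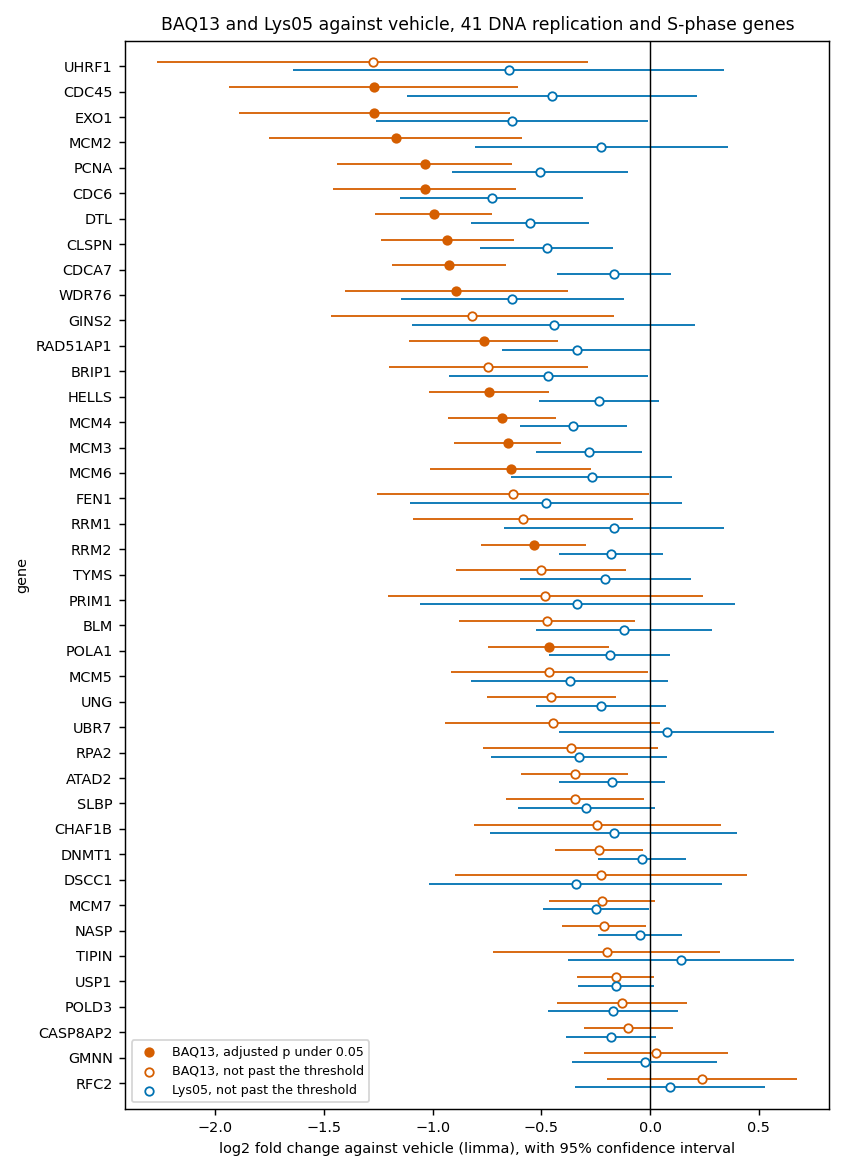
Log2 fold changes against vehicle (horizontal axis) with 95% confidence intervals by limma for the 41 genes, ordered by the BAQ13 estimate, in orange for BAQ13 and blue for Lys05, with filled points for an adjusted p under 0.05. There are 16 filled BAQ13 points and no filled Lys05 point, and for CDCA7 the intervals of the agents do not overlap.

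Replicate 3 of BAQ12 differed from its group in both directions. It was below both other BAQ12 libraries in 19 of the 41 genes, above both in 16 and between them in 6. The same count was not made over all genes tested, so whether it is particular to these genes is not known. It was low for PCNA, MCM2, RRM1 and FEN1 and high for TYMS, POLA1 and MCM4. Its summed count of 4759 lay next to those of BAQ12 replicates 1 and 2, at 4864 and 4752, whereas its median log2 difference from the vehicle mean over the 41 genes was -0.50 against -0.27 and -0.33. The 41 genes held 0.216% of all normalised counts in replicate 3, against 0.236% and 0.23% in replicates 1 and 2.

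Other genes of the same pathways were taken from lists by function. Of 19 further genes of origin licensing and firing, 1 was called lower with Lys05, 1 with BAQ12, 3 with BAQ13 and 1 with BAQ12O, and 1 was called higher with BAQ13, where 3.58% of all genes were. The gene in common was MCM10, a firing factor that binds the helicase, which measured 113, 104 and 110.2 with vehicle, 71.3, 63.5 and 56 with Lys05, 53.2, 60.4 and 60.3 with BAQ12, 43.9, 45.6 and 55.3 with BAQ13, and 53.9, 51.5 and 59.3 with BAQ12O. All treated MCM10 libraries lay below all vehicle libraries. Its log2 fold change was -0.77 ± 0.14 (SE), adjusted p = 0.0162 with Lys05, -0.90 ± 0.14 (SE), adjusted p = 0.00147 with BAQ12, -1.17 ± 0.14 (SE), adjusted p = 2.97e-05 with BAQ13 and -0.98 ± 0.14 (SE), adjusted p = 0.000917 with BAQ12O. With BAQ12, BAQ13 and BAQ12O the calls were kept whichever of the 6 libraries was left out, and with Lys05 in 1 of 6 fits. The GINS subunit gene GINS4 (-0.76 ± 0.14 (SE), adjusted p = 0.00333) and GINS1 (-0.61 ± 0.17 (SE), adjusted p = 0.0407, named after its value was seen) fell with BAQ13, while DBF4, the activator of the CDC7 kinase, rose (0.43 ± 0.11 (SE), adjusted p = 0.0213).

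Of 23 further polymerase and fork genes, POLE2 (-0.77), RFC4 (-0.50) and DNA2 (-1.13) fell with BAQ13, with adjusted p from 0.0322 to 0.0486 by limma, and 0 were called with the other agents, where 2 to 7 were lower at an unadjusted p under 0.05. They encode a subunit of polymerase epsilon, a clamp loader subunit and a nuclease-helicase. Of 12 further nucleotide supply genes 0 were called with any agent, with 0 to 4 lower at an unadjusted p under 0.05, and of 9 replication checkpoint genes 0 were called, with 0 at an unadjusted p under 0.05. Of 8 further chromatin assembly genes, the histone chaperone gene ASF1B fell with BAQ13 (-0.94 ± 0.23 (SE), adjusted p = 0.0195). Of 8 replication-dependent histone genes tested, the linker histone genes HIST1H1C (-0.54 ± 0.11 (SE), adjusted p = 0.00802) and HIST1H1E (-0.67 ± 0.18 (SE), adjusted p = 0.0352) fell with BAQ13. The counts summed over these 8 genes varied between libraries of a group. They were 1094, 1108 and 1975 with BAQ12, and 1240, 941.5 and 797 with BAQ13. The vehicle libraries had 1456, 1406 and 1400. How fully the library kit captured these mRNAs was not tested. Of 16 genes of E2F and G1/S control, CDC25A (-1.07 ± 0.30 (SE), adjusted p = 0.0472), the phosphatase that activates CDK2, fell with BAQ13, and CCND1 (-0.35 ± 0.08 (SE), adjusted p = 0.0326), cyclin D1, with BAQ12O. With the agents for which 0 genes of these last lists were called, 0 to 6 were lower at an unadjusted p under 0.05. Of the BAQ13 calls in these lists other than MCM10, GINS4 was kept in 6 of the 6 fits without 1 of the libraries compared and HIST1H1C in 5, and the others were kept in 0 to 2, as CCND1 with BAQ12O was in 1.

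The 20 genes of the G2/M list, which act later in the cell cycle, were not called with any agent by limma, and 0, 2, 6 and 0 were lower and 2, 1, 0 and 3 higher at an unadjusted p under 0.05 with Lys05, BAQ12, BAQ13 and BAQ12O, where 2.82%, 6.29%, 10.4% and 6.75% of all genes were higher. Every treated library lay above every vehicle library for 9, 3, 3 and 7 of the 20 genes in the same order of agents. For 1, 4, 6 and 1 every treated library lay below. Of all 10495 genes tested, 865, 813, 1524 and 1315 were separated above and 774, 799, 1507 and 1397 below. The median log2 fold change of the 20 genes was 0.08 with Lys05, 0.04 with BAQ12, -0.08 with BAQ13 and 0.07 with BAQ12O. The replication genes had medians of -0.25, -0.38, -0.50 and -0.39 in the same libraries. The difference between the lists was not tested.

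**Figure D4:**
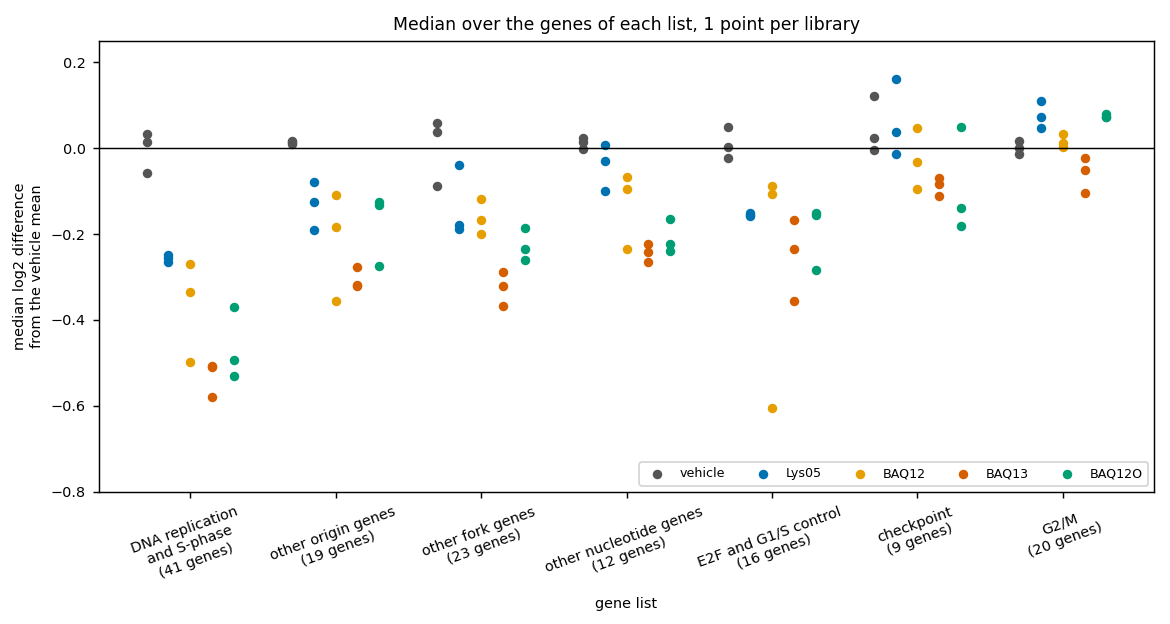
Median over the genes of each list of the log2 difference from the vehicle mean (vertical axis), with 1 point per library, for the 41 replication genes and 6 lists of related genes (horizontal axis). Every treated library of the replication genes lies at or below -0.25, while the G2/M medians lie between -0.10 and 0.11.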

How the data were processed

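The signal that the authors deposited for each gene in a library is its count of reads scaled by 1 size factor for the whole library. The submitters' processing notes name STAR, HTSeq and DESeq2 and the builds GRCh38 and hg38, without versions or roles. The methods give a stranded paired-end kit and the labels a 3′-end mRNA kit, so levels were not compared between genes. All non-zero values were whole multiples of the smallest step of their library within a tolerance of 0.01 reads (100% in each of the 15 libraries), and whole reads were recovered from them. The 92 spike-in rows held 0 reads.

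The 43 genes and all lists were chosen with earlier results of these data known. Genes were filtered with filterByExpr of edgeR 4.0.16 (minimum count 10, minimum total 15), which kept 10495. limma 3.58.1 (R 4.3.3) was fitted to log2(normalised count + 1) with eBayes and a variance trend, over 15 libraries without covariates, and p-values were adjusted by Benjamini-Hochberg over all genes tested. Fold changes on this scale are understated for genes with few reads. The comparisons were 4 agents against vehicle and 6 pairs of agents. On simulated data for BAQ13 against vehicle with 200 of 10495 genes changed, limma recovered 86% with 5 false calls, and 73.1% of those changed by 2-fold. The median log2 fold changes of the 41 genes against vehicle, from -0.50 to -0.25, were smaller than 2-fold. Recovery at that size was not tested. The simulated counts were drawn independently, with no library set apart as BAQ12 replicate 3 was and no deviations shared between libraries. Recovery and false calls in the data may therefore differ. Given with the value in every library were genes past the threshold against vehicle (at most 15, by adjusted p) and those set for their roles (MCM2 to MCM7, PCNA, RRM1, RRM2, TYMS, CCNE2, E2F8, CDC6, CDC45, SLBP and DNMT1), and of the pathway lists at most 3 genes per list and comparison. The alternatives were edgeR's quasi-likelihood test and DESeq2 1.42.0 on the recovered reads, pseudocounts of 0.1 and 5, TMM factors, no filter, at least 10 reads in every library, the threshold of the study, a block for the replicate number, a model of just the 6 libraries of a comparison, and leaving out each library. Coordinates are those of GENCODE release 29 (GRCh38).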

Additional observations from a re-analysis of the deposited data

How the results depend on the processing

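The medians of the 41 genes kept their sign in all 10 comparisons under every alternative. Of 250 recomputed counts of calls, 194 were within 1.5 times the reported count, 40 were lower and 16 higher. The 194 include counts of 0 that stayed at 0, so they do not measure how steady the counts above 0 were. A fit of only the 6 libraries compared called 5 genes with Lys05, 0 with BAQ12 and 24 with BAQ12O against vehicle, and 4 for BAQ13 and 2 for BAQ12O against Lys05. Of all genes, these fits called 114 of 9874, 31 of 9956, 881 of 9850, 390 of 9950 and 224 of 9707 in the same order. For BAQ12 against vehicle, 3 were called with a pseudocount of 0.1 and 3 without the filter, where 100 of 10495 and 80 of 22539 genes were called. For BAQ13 against Lys05, 1 was called with TMM factors and 1 without the filter, where 286 of 10495 and 214 of 22539 genes were called. The threshold of the study (fold change of 2 and unadjusted p of 0.05), applied to the limma fit, gave 0 for BAQ12, 6 for BAQ13 and 4 for BAQ12O against vehicle, 0 for BAQ13 against Lys05 and 1 each for BAQ12O against Lys05, BAQ13 against BAQ12, BAQ12O against BAQ12 and BAQ12O against BAQ13. Of all 10495 genes tested, 108, 227, 100, 135, 63, 65, 50 and 94 met it in either direction, in the same order. The cause was not tested.

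With any 1 library left out, the counts against vehicle ranged from 0 to 2 (Lys05), 0 to 8 (BAQ12), 9 to 22 (BAQ13) and 2 to 18 (BAQ12O). Those between agents ranged from 1 to 12 (BAQ13 against Lys05), 0 to 1 (BAQ12O against Lys05), 0 to 3 (BAQ13 against BAQ12), 0 to 1 (BAQ12O against BAQ12) and 0 to 2 (BAQ12O against BAQ13), each highest without BAQ12 replicate 3. In that fit 811, 82, 330, 54 and 389 of all 10657 genes were called between agents, in the same order. The median log2 fold changes ranged from -0.41 to -0.33 (BAQ12, the latter without its replicate 3), -0.57 to -0.50 (BAQ13), -0.47 to -0.34 (BAQ12O), -0.30 to -0.24 (BAQ13 against Lys05) and -0.24 to -0.13 (BAQ12O against Lys05). Of the named genes, TYMS with BAQ12 (-0.37 to 0.11), UHRF1 with BAQ12 (-0.43 to 0.022) and DNMT1 with Lys05 (-0.11 to 0.043) changed sign without some library, and none of them was called.

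Correlations of the deviations of same-numbered libraries ran from -0.492 to 0.2, and in 0 comparisons was every pair over 0.1. They ran from 0.0604 to 0.2 for BAQ12 against Lys05 and from -0.492 to 0.117 for BAQ13 against BAQ12. Deviations from a mean of 3 libraries sum to 0 within a group, so these correlations cannot exclude a pairing by number. Some libraries with different numbers deviated together. The correlation was 0.573 between BAQ13 replicate 1 and BAQ12 replicate 3. For BAQ13 replicate 3 it was 0.416 with BAQ12 replicate 1 and 0.351 with BAQ12 replicate 2. The cause of these shared deviations was not tested. In the model with a replicate block, 0, 4, 14 and 6 genes were called against vehicle with Lys05, BAQ12, BAQ13 and BAQ12O, and 2 for BAQ13 against Lys05. Of all 10495 genes, that model called 21, 77, 512 and 119 against vehicle, and 199 for BAQ13 against Lys05. Depth limits CCNE2, E2F8 and UHRF1 most, with 5 to 34 reads per group.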
